A study of Mus musculus with 20 samples.

Results

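Vasopressin and oxytocin are sister peptides, and the 5 genes described here encode both precursors (Avp and Oxt) and their receptors Avpr1a, Avpr1b and Oxtr. They were taken by symbol: each gene had 1 probe set that named it alone, so 5 of 28767 probe sets were used, or 5 of the 19933 gene symbols on the array. RNA came from the left and right amygdala of 20 male C57BL/6 mice aged 7 months, 1 mouse per array. The mice descended from parents heterozygous for a deletion of the serotonin transporter (5-HTT, gene Slc6a4), had been housed singly from 5 months of age, and had been tested on an elevated plus-maze 2 weeks before. The groups were wild type mice kept in the homecage for 1 min (WT con), wild type mice placed in water of 22 °C for 1 min (WT stress), and knockout mice under the same conditions (KO con, KO stress), with 5 mice each. The knockout was present in all tissues and throughout life, and dissection was complete within 540 sec of the start of the protocol. The design asked whether a brief stressor changed transcript levels, and whether the response depended on the transporter.

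Vasopressin and oxytocin are nonapeptides cut from larger precursors that also contain a carrier protein, neurophysin. Large neurosecretory neurons of the paraventricular and supraoptic hypothalamic nuclei make most of both peptides, release them into the circulation from the posterior pituitary and send axons to the forebrain. A further set of vasopressin neurons lies in the medial amygdala and the bed nucleus of the stria terminalis, where its expression depends on sex steroids. In the amygdala the peptides act on V1a receptors (Avpr1a), V1b receptors (Avpr1b) and oxytocin receptors (Oxtr), which couple mainly to Gq proteins and phospholipase C and which are known for their part in fear, anxiety and social recognition.

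Avp and Oxt are neighbours on mouse chromosome 2 that are transcribed toward each other, which leaves their promoters at the outer sides of the pair. RefSeq (GRCm38.p6) places Oxt at chr2:130574519-130577054 on the plus strand and Avp at chr2:130580620-130582588 on the minus strand, with 3565 bases between the annotated ends. For Oxt the RefSeq promoter table uses a start site 1650 bases inside the annotated gene, at 130576169. The 250 bases before the start site that this table uses are shown for each gene because the levels of these genes were correlated among mice. Capitals mark matches to CACGTG (the palindromic E-box of clock transcription factors), to TGACCT or its reverse complement AGGTCA (the core that nuclear receptors bind), to TGACG (the core of the cyclic AMP response element) and to ATAAA (the core of a TATA box), with both strands searched.

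Avp, chr2:130582589-130582838, minus strand: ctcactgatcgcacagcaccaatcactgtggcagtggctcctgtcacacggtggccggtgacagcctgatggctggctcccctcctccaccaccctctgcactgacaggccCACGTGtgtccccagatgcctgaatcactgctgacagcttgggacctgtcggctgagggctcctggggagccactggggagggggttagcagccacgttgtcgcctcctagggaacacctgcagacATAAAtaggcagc
Oxt, chr2:130575919-130576168, plus strand: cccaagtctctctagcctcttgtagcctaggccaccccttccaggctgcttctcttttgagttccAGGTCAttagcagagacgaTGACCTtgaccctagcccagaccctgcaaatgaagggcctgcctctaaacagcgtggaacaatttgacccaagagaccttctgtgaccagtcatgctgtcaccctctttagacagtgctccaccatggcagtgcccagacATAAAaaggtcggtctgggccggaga

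The Avp window held 1 CACGTG, which began 139 bases before the start, and 1 ATAAA. The Oxt window held TGACCT in both orientations, beginning 185 and 166 bases before the start, and 1 ATAAA. Neither window contained TGACG, and CACGTG was not among the letters of the Oxt window, nor TGACCT among those of the Avp window. Among 32851 mouse promoter windows of this length, 6.02% held CACGTG, 14.02% TGACCT, 17.8% TGACG and 37.3% ATAAA on either strand. The motif matches describe the letters and no binding was measured.

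All levels below are log2 values as deposited, and a difference of 1 is a 2-fold difference. Array medians ran from 6.59 to 6.82, highest values from 13.72 to 14.24, and correlations between arrays from 0.948 to 0.996. The arrays numbered 1 of WT con and WT stress resembled the others least and held the lowest and the highest median. Slc6a4 itself was higher, not lower, in the arrays labelled KO, at 8.16 ± 0.03 in KO con and 8.28 ± 0.11 in KO stress against 6.62 ± 0.75 in WT con and 6.39 ± 0.10 in WT stress (SD, n = 5 each). The paper also lists Slc6a4 as higher in KO mice, both in the control and in the stress condition. Where its probes lie relative to the deleted part is not stated, so this value cannot check the genotype labels. WT con replicate 5 read 7.82, against 5.82 to 6.73 in the remaining WT arrays and 8.10 to 8.38 in the KO arrays. Without it the Avpr1a difference WT stress minus WT con was -0.52 and the interaction 0.77. In total RNA from a whole dissection, fewer cells of a type and less RNA per cell cannot be told apart.

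Avp, Oxt and Avpr1a varied greatly among mice of the same group, and Avpr1b and Oxtr hardly varied. The SD within groups was 0.52 for Avp, 0.70 for Oxt and 0.53 for Avpr1a, which placed them above 97.2%, 99.2% and 97.3% of all probe sets. It was 0.16 for Avpr1b and 0.11 for Oxtr, against a median of 0.18 over the array. Between the lowest and the highest of the 20 mice, Avp differed 4.80-fold, Oxt 4.61-fold and Avpr1a 4.49-fold. With so wide a spread the comparisons of the first 3 genes had wide confidence intervals, and the group means of all 5 are drawn with every mouse in the plot of values by group.

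**Figure D1:**
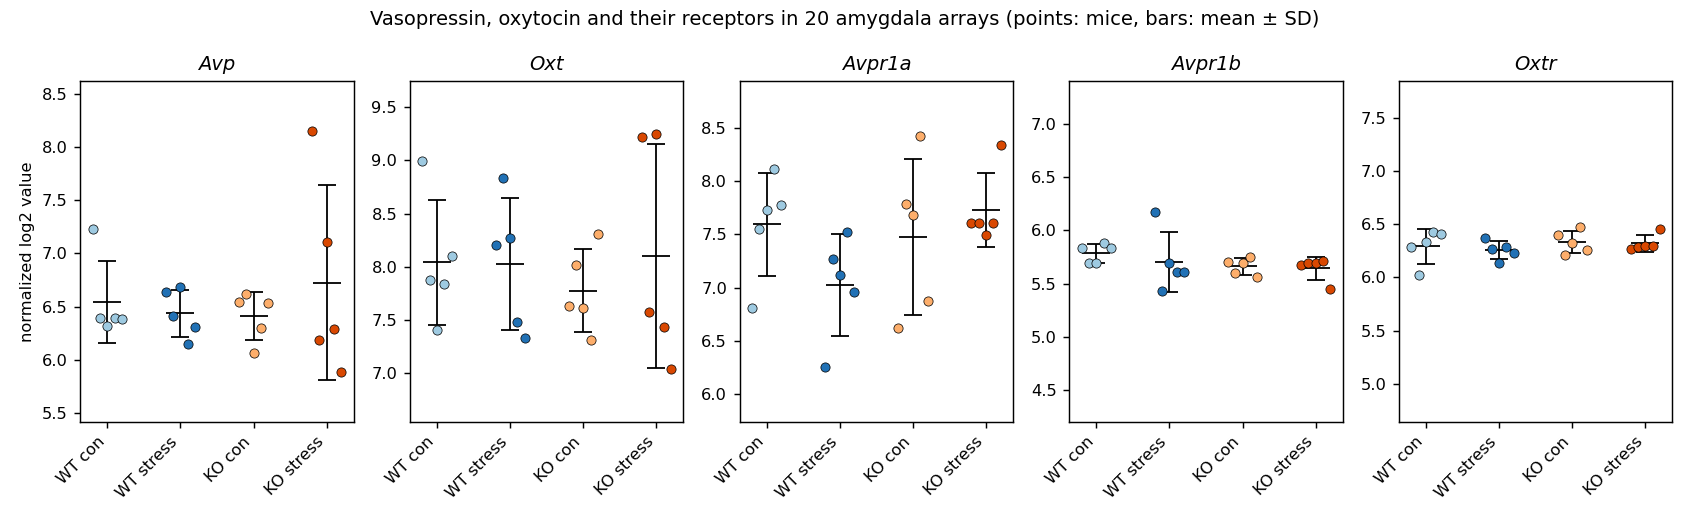
Normalized log2 values of Avp, Oxt, Avpr1a, Avpr1b and Oxtr (vertical axes, each spanning 3.2 log2 units) in the 4 groups (horizontal axis), with 1 point per mouse in the order of the replicate number and bars for the mean ± SD. Single mice of WT con and KO stress carry the high Avp and Oxt values, 4 of 5 KO stress mice lie above all WT stress mice for Avpr1a, and Avpr1b and Oxtr are nearly level.

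Avp, the vasopressin precursor, was near 6.4 in most mice and did not pass the test in any comparison of groups. The mean of its probe set, 6.53, was above 46.7% of all probe sets. How well a signal of this level follows the transcript was not tested. In order of replicate 1 to 5 the WT con arrays read 7.23, 6.40, 6.32, 6.39 and 6.39. The WT stress arrays read 6.63, 6.41, 6.68, 6.15 and 6.31, and the KO con arrays 6.55, 6.62, 6.07, 6.30 and 6.53. The KO stress arrays read 8.15, 6.18, 7.11, 6.29 and 5.89, so this group held the highest and the lowest value of all 20, and every pair of groups overlapped. The difference KO stress minus KO con was 0.31 (SE 0.31, 95% confidence interval -0.34 to 0.97, limma adjusted p = 1.00, exact permutation p = 0.564, two-sided). It was -0.04 without KO stress replicate 1.

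Oxt, the oxytocin precursor, showed the same mice at the top. The WT con arrays read 8.99, 7.87, 7.40, 7.84 and 8.10, the WT stress arrays 8.21, 8.84, 8.27, 7.48 and 7.33, and the KO con arrays 7.63, 8.02, 7.61, 7.31 and 8.31. The KO stress arrays were apart from each other, with 9.22 and 9.25 in replicates 1 and 3 and 7.57, 7.43 and 7.04 in replicates 2, 4 and 5. WT means were 8.04 ± 0.59 (con) and 8.02 ± 0.62 (stress), and KO means 7.78 ± 0.39 (con) and 8.10 ± 1.05 (stress; SD, n = 5 each), and the groups overlapped in all comparisons. KO stress minus KO con was 0.33 (SE 0.42, interval -0.56 to 1.21) and WT stress minus WT con -0.02 (SE 0.42, interval -0.90 to 0.86), each with a limma adjusted p of 1.00. The interval of the WT response includes a 1.5-fold change in either direction, and that of the KO response a 1.5-fold increase. With KO stress replicate 3 left out the KO difference was 0.04, and with replicate 5 of that group left out it was 0.59.

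Among mice of the same group the levels of both precursors were correlated. After the group means were subtracted, Pearson's r between Avp and Oxt was 0.83 (permutation p = 6e-04, adjusted over 10 gene pairs 0.0060) and Spearman's rho 0.83 (permutation p = 8.5e-04, adjusted 0.0085) over 20 arrays. It was 0.80 without WT con replicate 1 and KO stress replicate 1, the arrays farthest from the Avp median. Within single groups of 5 mice r was 0.93 in WT con and 0.91 in KO stress, and 0.58 in each of WT stress and KO con. Of the 20 arrays, 6 had a highest value of 13.72 to 13.82 and the remaining 14 a highest value of 13.97 to 14.24. The 6 were replicates 4 and 5 of WT con and WT stress and replicate 5 of KO con and KO stress. Between Avp and Oxt r was 0.83 within these 6 arrays and 0.81 within the 14. The precursor genes are alike in sequence, and whether their probes also bound the transcript of the other gene was not tested.

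The mice with high Oxt were also high in transcripts of hypothalamic neuroendocrine neurons, a list of 17 marker genes of which 16 were measured. The score of that list, its mean value after centring each gene, reached 0.75 in KO stress replicate 1 and 0.69 in KO stress replicate 3, the mice with the highest Oxt. In the other mice it lay between -0.43 and 0.53, and in WT con replicate 1, where Oxt was 8.99, it was only -0.10. With group means subtracted the score correlated with Oxt at r = 0.81 (permutation p = 0.0022, adjusted over 50 relations 0.0281; rho = 0.81, permutation p = 0.0014, adjusted 0.0180). The r was 0.70 without both of those KO stress mice. With Avp it correlated at r = 0.72 (permutation p = 0.0043, adjusted 0.0433; rho = 0.67, permutation p = 0.0111, adjusted 0.0556), and at 0.73 without the arrays farthest from the Avp median.

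Sim1 and Otp, transcription factors needed for the paraventricular nucleus to form, and Trh, the precursor of thyrotropin-releasing hormone, were among these markers. Over the 20 arrays, Trh followed Oxt most closely of the 16, at r = 0.84, and ranged from 5.74 in WT stress replicate 4 to 9.54 and 9.68 in KO stress replicates 1 and 3. Sim1 correlated with Oxt at r = 0.78, and Otp correlated with Avp at r = 0.83 while its own values rose only to 7.31 and 7.16 in KO stress replicates 1 and 3, from 6.84 to 7.06 in the remaining mice. Magel2, expressed in many hypothalamic neurons, was not correlated with Oxt. The list had no member at the lowest value of the table, and its group means ranged from -0.12 in WT con to 0.15 in KO stress. What part tissue of the neighbouring hypothalamus had in the Avp and Oxt values was not tested.

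Scores of marker lists for other neurons near or within the amygdala were also correlated with Oxt. The central amygdala and striatal list (12 of 14 genes measured, among them the enkephalin precursor Penk, at r = 0.58 with Oxt over the 20 arrays) correlated with Oxt at r = 0.71 (permutation p = 5e-05, adjusted 0.0025; rho = 0.77, permutation p = 6e-05, adjusted 0.0015), and at 0.78 without both KO stress mice of highest Oxt. With Avp the r was 0.55 (permutation p = 3.2e-04, adjusted 0.0053; rho = 0.72, permutation p = 3e-05, adjusted 0.0015), and 0.58 without the arrays farthest from the median. Prkcd, a protein kinase that marks neurons of the lateral central amygdala, ran the other way (r = -0.65 with Oxt over the 20 arrays), the only one of the 12 genes with a negative r. It read 8.01 in WT con replicate 1 and 8.82 and 8.91 in KO stress replicates 1 and 3, against 10.12 to 10.72 in the remaining mice of these groups. The medial amygdala list (12 of 14 genes, with the oestrogen receptor Esr1) correlated with Oxt at r = 0.67 (permutation p = 0.0060, adjusted 0.0474; rho = 0.69, permutation p = 0.0069, adjusted 0.0496), and at 0.59 without the same mice. With Avp its r of 0.42 did not pass (permutation p = 0.0778, adjusted 0.185; rho = 0.51, permutation p = 0.0417, adjusted 0.139). Glial scores ran the other way, and 2 relations passed by rho only. Avp correlated with the oligodendrocyte score at r = -0.55 (permutation p = 0.0178, adjusted 0.0947; rho = -0.62, permutation p = 0.0064, adjusted 0.0496). Oxt correlated with the astrocyte score at r = -0.47 (permutation p = 0.0310, adjusted 0.119; rho = -0.61, permutation p = 0.0062, adjusted 0.0496).

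**Figure D2:**
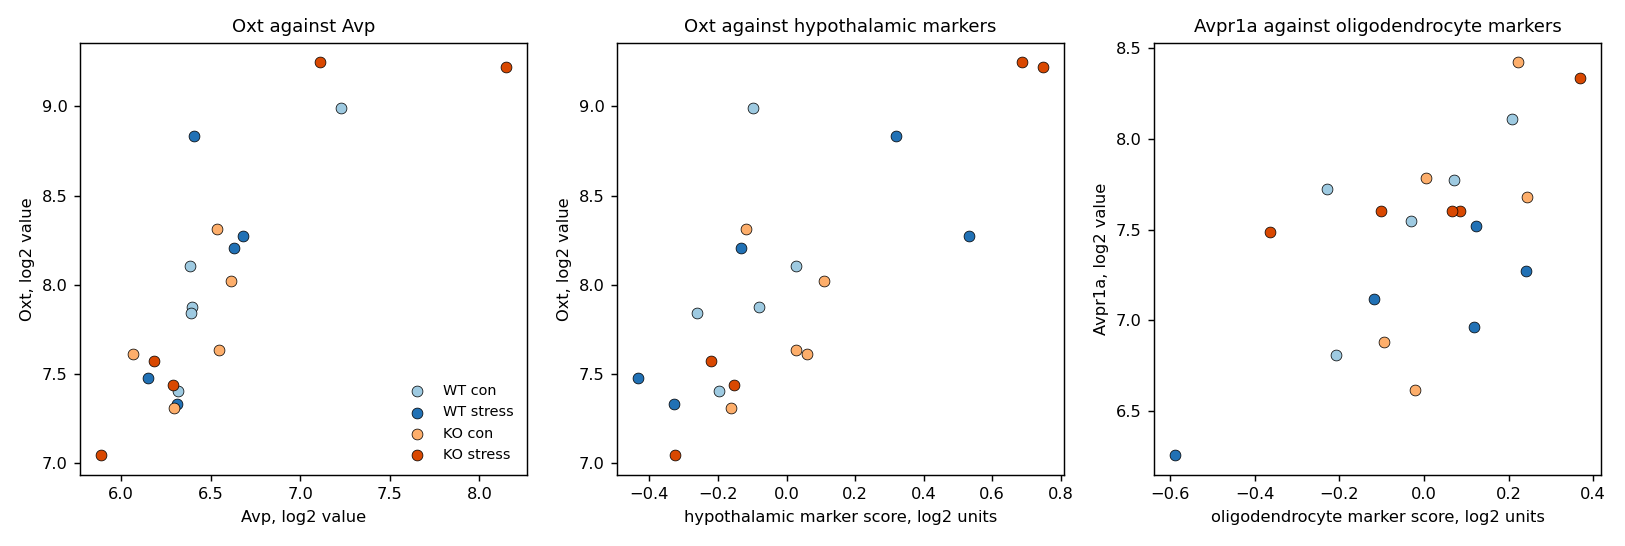
Left: Oxt against Avp, both as log2 values, 1 point per mouse, coloured by group. Middle: Oxt against the score of 16 hypothalamic marker genes. Right: Avpr1a against the score of 7 oligodendrocyte marker genes (mean centred log2 value). Oxt rises with Avp and with the hypothalamic score, KO stress replicates 1 and 3 lie at the upper right of both plots, and WT stress replicate 1 is lowest in Avpr1a and in the oligodendrocyte score.

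Avpr1a, the V1a receptor (probe set 10366707, chr10:122448499-122453453), was the only one of the 5 genes to pass the criterion of the study, a fold change over 1.5 with an unadjusted p under 0.05. It did so in KO stress vs WT stress. The WT con arrays read 6.81, 7.55, 7.72, 8.11 and 7.78 and the KO con arrays 6.62, 7.79, 7.68, 8.42 and 6.88, so the homecage groups overlapped fully. The WT stress arrays read 6.26, 7.27, 7.12, 7.52 and 6.96 and the KO stress arrays 7.60, 7.61, 7.49, 7.60 and 8.34. All KO stress mice but replicate 3 lay above the highest WT stress mouse.

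Stressed KO mice had 1.63-fold more Avpr1a than stressed WT mice, a log2 difference of 0.70 (SE 0.31, 95% confidence interval 0.04 to 1.36, exact permutation p = 0.0159, two-sided). The smallest p that 5 against 5 arrays allow is 0.00794, and 20 such tests were made over the 5 genes and 4 comparisons. After adjustment over the array the difference did not pass (limma with Benjamini-Hochberg adjustment, adjusted p = 0.53). The criterion was met by 1 of the 5 genes, against 0.768% of all probe sets (221 of 28767), of which 100 (0.348%) were higher in stressed KO mice. The call was lost when WT stress replicate 1 (difference 0.51), WT stress replicate 5 (0.69) or KO stress replicate 5 (0.55) was left out, and among the 14 arrays with the higher maximum (0.69).

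The stress response of Avpr1a pointed downward in WT mice and was not resolved in KO mice. WT stress minus WT con was -0.57 (SE 0.31, interval -1.23 to 0.09, limma adjusted p = 1.00, exact permutation p = 0.103), and 4 of 5 WT con mice lay above all WT stress mice. KO stress minus KO con was 0.25 (SE 0.31, interval -0.41 to 0.91, limma adjusted p = 1.00, exact permutation p = 0.579), and ranged from 0.04 without KO con replicate 1 to 0.49 without KO con replicate 4. The interaction of genotype and stress, which tests whether these responses differ, was 0.82 (SE 0.45, interval -0.12 to 1.75, limma adjusted p = 1.00), and 0.43 among the 14 arrays with the higher maximum. In unstressed mice KO minus WT was -0.12 (SE 0.31, interval -0.78 to 0.54). Marker lists of cell types also differed between stress and control. In WT mice 10 of 10 measured pallial excitatory genes were higher after stress (median 0.60), as were 62.8% of all probe sets. Of these pallial genes, 3 met the criterion, against 0.24% of all probe sets. Single mice carried this shift. The pallial score was 0.46, 1.08 and 0.98 in WT stress replicates 1, 4 and 5. It was -0.32 and -0.33 in replicates 2 and 3, within the WT con range of -0.50 to -0.10. In KO mice 10 of 10 choroid plexus genes were higher (median 1.13), and 6 met the criterion, against 0.139% of all probe sets. Most genes of the choroid plexus list are also on the paper's list for KO stress vs con, called from these same arrays. That count is therefore in part built into the choice of genes. What part such shifts had in the Avpr1a responses was not tested.

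WT con and WT stress arrays with the same replicate number deviated from their group means together, and in these 5 pairs Avpr1a was lower after stress each time. The pair differences were -0.56, -0.28, -0.61, -0.59 and -0.81 for numbers 1 to 5. With the number as a block in the WT arrays, the unadjusted p of the -0.57 difference was 4.8e-04, the 4th lowest of 28767 probe sets. Without the block it was 0.066 (limma on the WT arrays alone). The pairs were chosen by correlations in these same arrays, so the lower p depends on that choice. Numbers 4 and 5 were also the WT arrays of the lower maximum. The adjusted p stayed at 1.00 (limma with a block), the fold of 1.48 stayed under 1.5, and the exact sign-flip p was 0.0625, which is the smallest that 5 pairs allow. The KO arrays were not paired by their numbers, and their differences ran from -0.82 to 1.46, 3 of them negative. The labels do not say what the numbers share. A block on the number in all groups imposes the pairing on the KO arrays too, where it was not seen. In that fit the interaction met the criterion (limma, unadjusted p = 0.0275, adjusted p = 1.00). Without a block it did not (limma, unadjusted p = 0.082).

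**Figure D3:**
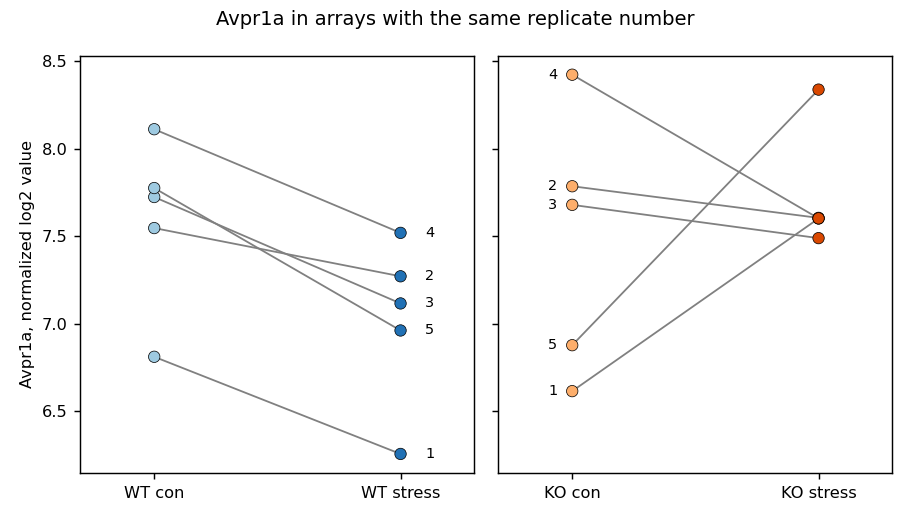
Normalized log2 value of Avpr1a (vertical axis) in WT (left) and KO (right) mice, control and stress, with a grey line between arrays that carry the same replicate number, written beside one end. All 5 WT lines fall, by 0.28 to 0.81, while 2 of the 5 KO lines rise.

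The genes whose pattern over the 20 arrays was most like that of Avpr1a followed it more closely than any gene followed the precursors. Among 14954 probe sets with 1 symbol and a mean of at least 6, the highest r belonged to Zfp521, a zinc finger protein (0.93), Gnai1, an inhibitory G protein subunit (0.93), Nhs (0.93), Pld5 (0.92) and Dlx1, a homeobox factor of GABAergic forebrain neurons (0.92). Without the arrays farthest from the Avpr1a median the values lay between 0.87 and 0.89. Dlx1 read 8.16 in WT con replicate 1, 8.27 in WT stress replicate 1 and 8.04 in KO con replicate 1, the same arrays in which Avpr1a was lowest in its group, and up to 10.13 in WT con replicate 4 and KO con replicate 4. With group means subtracted r lay between 0.89 and 0.92. In KO stress vs WT stress these genes differed by 0.75 (Zfp521), 0.44 (Gnai1), 0.46 (Nhs), 0.89 (Pld5) and 0.95 (Dlx1), with a limma adjusted p of 0.53 for each. The genes were picked with the group means left in, so differences in the direction of Avpr1a are in part built into the choice. Like Avpr1a, Zfp521, Pld5 and Dlx1 are on the paper's list of genes higher in stressed KO than stressed WT mice. Gnai1 and Nhs are not.

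Avpr1a also moved with oligodendrocyte transcripts. With group means subtracted, r with the score of 7 myelin genes, among them Mbp and Mag, was 0.70 (permutation p = 3.2e-04, adjusted over 50 relations 0.0053; rho = 0.76, permutation p = 2.4e-04, adjusted 0.0040). It was 0.76 without KO con replicates 1 and 4. WT stress replicate 1 was lowest in Avpr1a (6.26) and in this score (-0.59), with the astrocyte score at -0.67. Between the stressed groups the myelin genes differed little, with 6 of 7 higher in KO stress, a median of 0.04 and group means of the score of -0.04 in WT stress and 0.01 in KO stress. Correlations with the precursors were negative, at -0.43 with Avp (permutation p = 0.0150, adjusted 0.0750; rho = -0.48, permutation p = 0.0304, adjusted 0.152) and -0.43 with Oxt (permutation p = 0.0322, adjusted 0.107; rho = -0.43, permutation p = 0.0499, adjusted 0.166), and did not pass.

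**Figure D4:**
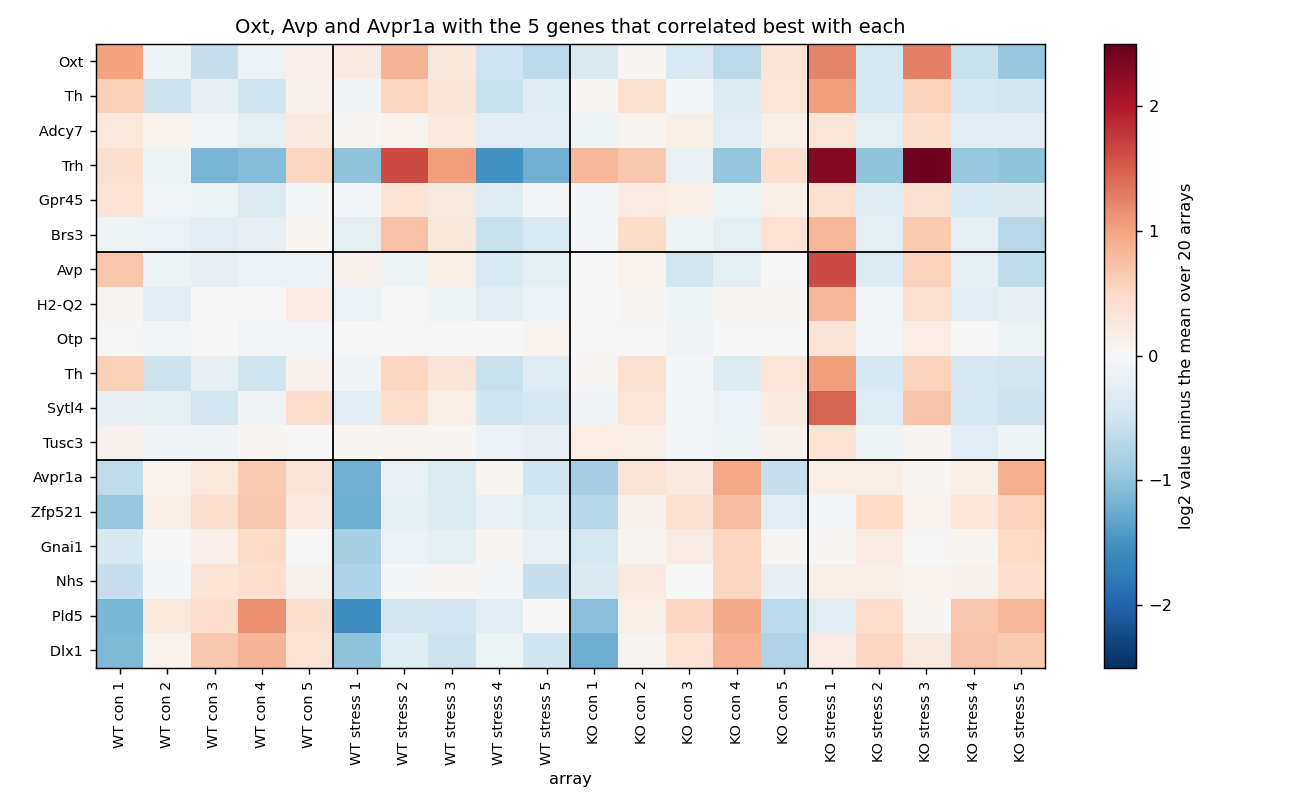
Log2 value minus the mean over 20 arrays (colour) for Oxt, Avp and Avpr1a, each above the 5 genes that correlated best with it (rows), in every array ordered by group (columns). KO stress replicates 1 and 3 are high for Oxt, Avp and their genes, and replicates 1 of WT con, KO con and WT stress are low for Avpr1a and its genes.

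For Oxt the best correlated genes were Th, the tyrosine hydroxylase of catecholamine synthesis (r = 0.87), Adcy7 (0.85), Trh (0.84), Gpr45 (0.84) and Brs3, the bombesin receptor subtype (0.82). For Avp they were H2-Q2 (0.84), Otp (0.83), Th (0.81), Sytl4, a granule docking protein (0.77), and Tusc3 (0.76). Without the arrays farthest from the median these values were 0.71 to 0.82 for the Oxt genes and 0.60 to 0.72 for the Avp genes, and rho was 0.60 for H2-Q2 and 0.56 for Otp. Th ranged from 5.66 in WT stress replicate 4 to 7.26 in KO stress replicate 1, followed by 6.81 in WT con replicate 1 and 6.79 in KO stress replicate 3. These are the mice with the highest Avp. None of these genes differed between the stressed groups by more than 0.56 (Trh, SE 0.76).

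Avpr1b, the V1b receptor (probe set 10349644, chr1:131599114-131612000), was low and flat, with WT means of 5.79 ± 0.09 (con) and 5.70 ± 0.28 (stress) and KO means of 5.66 ± 0.08 (con) and 5.64 ± 0.11 (stress; SD, n = 5 each). The wide WT stress group ran from 5.43 in replicate 2 to 6.18 in replicate 1. In 6 arrays the deposited value was the same to its last digit, 5.69, and values shared by 6 or more arrays occurred in 18.9% of all probe sets. The largest difference, -0.12 for KO con minus WT con (SE 0.10, interval -0.34 to 0.09), did not pass (limma adjusted p = 0.93, exact permutation p = 0.0794). Its best correlated genes, Nlrx1 (r = 0.85), Gm16982 (0.85), Foxs1 (0.82), Tsks (0.82) and Cby3 (0.82), fell to 0.65 to 0.75 without WT stress replicates 1 and 2.

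Oxtr, the oxytocin receptor (probe set 10546829, chr6:112473683-112491035), lay between 6.02 and 6.47 in all mice. Control means were 6.29 ± 0.16 (WT) and 6.33 ± 0.11 (KO), and means after stress 6.26 ± 0.09 (WT) and 6.32 ± 0.08 (KO; SD, n = 5 each), and all groups overlapped. In the 4 comparisons tested no difference was over 0.06 (KO stress minus WT stress, SE 0.07, interval -0.09 to 0.22, limma adjusted p = 0.72). In these 4 comparisons the interval stayed within 0.22 of 0, so a 1.5-fold change in this probe set was outside the interval. The mean of the probe set, 6.30, was above only 42.4% of all probe sets. Whether so low a signal follows changes of the transcript was not tested. Oxtr correlated with the medial amygdala score at r = -0.55 (permutation p = 0.0066, adjusted 0.0474; rho = -0.56, permutation p = 0.0085, adjusted 0.0517), and at -0.52 without WT con replicate 2 and KO con replicate 4. No gene followed it closely, with Stk40 first at 0.69.

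**Figure D5:**
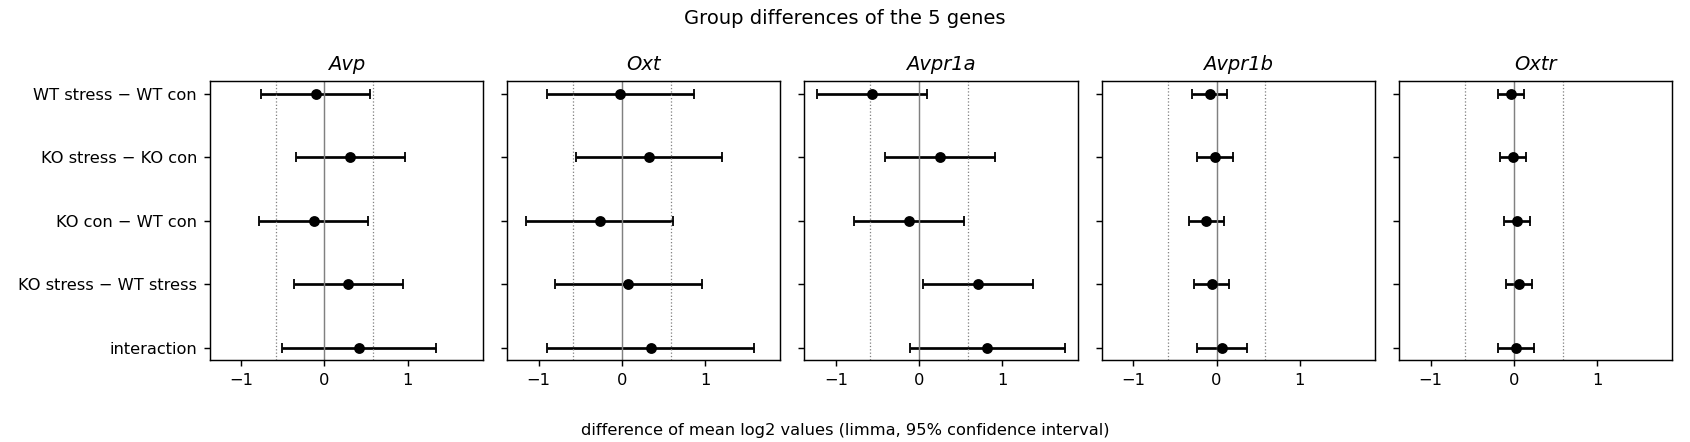
Differences of group means in log2 units (horizontal axis) for each gene and comparison (rows), from limma, with 95% confidence intervals, and dotted lines at a 1.5-fold change. Only the interval of Avpr1a in KO stress minus WT stress, 0.04 to 1.36, excludes 0, and the intervals of Avpr1b and Oxtr are the narrowest.

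In the remaining comparisons none of the 5 genes met the criterion, against 0.24% of probe sets in WT stress vs con, 0.139% in KO stress vs con, 0.0487% in con KO vs WT, 0.591% in the interaction, 0.0556% in stress averaged over genotypes and 0.139% in genotype averaged over conditions. No gene passed an adjusted p of 0.05 in any of 7 contrasts (limma), where 0 or 1 probe sets of the whole table did (at most 0.00348%). Unadjusted p-values under 0.05 were found for 9.28% of probe sets in KO stress vs WT stress, where Avpr1a had one. They were found for none of the 5 genes in WT stress vs con (3.54% of probe sets), KO stress vs con (1.13%), con KO vs WT (3.57%), the interaction (2.52%), stress averaged over genotypes (1.67%) and genotype averaged over conditions (12%). The median difference of the 5 genes in KO stress vs WT stress was 0.08 and that of all probe sets -0.03.

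Of a list of 4 further genes of the system, the V2 receptor Avpr2 and the vasopressin-induced gene Avpi1 were measured, and neither passed the criterion (KO stress minus WT stress -0.01 and 0.06). Of 12 measured genes of peptide processing and dense-core vesicles, 10 were higher in KO stress than WT stress, as were 41.3% of all probe sets. Their median difference was 0.19, and none passed the criterion. The largest differences were those of Chga, a granin of secretory granules (0.42, SE 0.20), Pcsk1n, an inhibitor of proprotein convertase (0.42, SE 0.20), Pcsk1, the convertase itself (0.42, SE 0.22), and Scg3 (0.37, SE 0.19), each with a limma adjusted p of 0.53. WT stress replicate 1 was far below the others in the score of this list. It read -0.58, against -0.28 to 0.12 in the other WT stress mice and -0.12 to 0.31 in KO stress. Of 18 measured genes of Gq signalling, which the receptors use, 12 were higher, with a median of 0.05. The phospholipase Plcb3 alone had an unadjusted p under 0.05 (0.25, SE 0.10, limma adjusted p = 0.53), against 9.28% of all probe sets, and did not reach 1.5-fold.

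Markers of regions and cell types were compared between the same groups by counts alone, and the scores of the lists given here overlapped. In KO stress vs WT stress, 1 of 10 pallial excitatory genes was higher (median -0.34), with Neurod6 past the criterion (-1.34, SE 0.62), which 0.768% of all probe sets met, and the score ranged from -0.33 to 1.08 in WT stress and from -0.65 to 0.57 in KO stress. Of 12 central amygdala and striatal genes 9 were higher (median 0.21), Dlk1 past the criterion (0.78, SE 0.31), with scores from -1.03 to 0.63 and from -0.59 to 0.40. Of 12 medial amygdala genes 10 were higher (median 0.29), Ecel1 past the criterion (0.69, SE 0.28), and scores ran from -0.67 to 0.42 and from -0.20 to 0.56. Astrocyte genes were higher in 11 of 12 cases (median 0.16), with scores from -0.67 to 0.22 in WT stress and from -0.02 to 0.33 in KO stress, and choroid plexus genes in 9 of 10 (median 0.56), with scores from -1.05 to 2.78 and from -0.55 to 2.00. The medians for thalamic, endothelial, microglial and hypothalamic genes were 0.11, 0.15, 0.06 and 0.09, against -0.03 for all probe sets. No gene of these lists was at the lowest value of the table, none passed an adjusted p of 0.05 in this comparison, and their part in the Avpr1a difference was not tested.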

How the data were processed

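The authors hybridized amygdala RNA of 20 mice to Affymetrix Mouse Gene 1.0 ST arrays, processed the scans in ArrayAssist (ExonRMA summaries, then variance stabilization) and deposited log2 values for 28767 probe sets. These log2 values were used as deposited. Groups came from the sample labels. The number of arrays limits the precision, since arrays give no read depth. Probe sets were named from the platform's table, and all 5 genes were matched to RefSeq (GRCm38.p6) by gene ID.

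limma 3.58.1 (R 4.3.3) was fitted to 4 group means over all probe sets (16 residual and 2.10 prior degrees of freedom), with 7 contrasts and Benjamini-Hochberg adjustment over 28767 probe sets. The study's methods used an unpaired t-test with a fold change over 1.5 and no adjustment. That criterion was applied here with the p-values of limma. The fit was tested on simulated data. Single genes were also compared by exact permutation (5 against 5), and correlations by 100000 permutations within groups.

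The 5 genes and the 13 gene lists (markers included) were chosen with earlier results of these data known. Named besides them were Slc6a4, at most 4 genes per list with the largest difference, and the 5 best correlated probe sets per gene. Sim1 was named after its values were seen. List genes without a probe set of their own symbol were not analysed here.

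Arrays of the same replicate number were compared by the correlation of their deviations from group means. For WT con and WT stress all 5 correlations were over 0.1 (0.162 to 0.420), and for the other pairs of groups 2 or 3 of 5 were. Pairing was thus seen only in the WT arrays. The main fit had no block, and blocks on the WT arrays alone or with the KO arrays were run as alternatives only. Alternatives covered the test, normalization, filters, array weights, the replicate block and leaving out arrays. A split of arrays by their highest value was added after seeing the data. In 42.1% of probe sets at least 2 arrays held exactly the same value.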

Additional observations from a re-analysis of the deposited data

Results flagged for a closer look

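In 4 of the 20 combinations of gene and group, 1 mouse lay far from the other 4 by Dixon's test, where chance alone gives about 1. Avp in WT con replicate 1 was 7.23, with the next value at 6.40. Avpr1a in KO stress replicate 5 was 8.34, with the next at 7.61. Avpr1b in the same mouse was 5.45, below the next value of 5.68, and Oxtr was 6.46, above the next value of 6.30. KO stress replicate 5 was thus apart from its group in all 3 receptors, and it also held the lowest Avp (5.89) and Oxt (7.04) of the 20 mice. Its array was also the one of KO stress with the lower maximum (13.79, against 14.02 to 14.21 in replicates 1 to 4). What part that difference between arrays had in these values was not tested.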

How the results depend on the processing

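The number of the 5 genes past the criterion stayed at 0 in 4 of 7 contrasts under every alternative run. In KO stress vs WT stress it was 1, and it was 0 with array weights (Avpr1a difference 0.51), without WT con and WT stress replicate 1 together (0.51) and within the 14 arrays of the higher maximum (0.69). Leaving out single arrays it ranged from 0 to 1, with Avpr1a between 0.51 (without WT stress replicate 1) and 0.83. With the replicate block in all groups, which also pairs the KO arrays, the interaction count was 1 instead of 0. The block within WT or KO arrays alone changed no count. Leaving out WT con replicate 1 or KO con replicate 4 gave 1 for the interaction (range 0 to 1, Avpr1a 1.02 and 1.06), and leaving out WT con replicate 1 gave 1 for WT stress vs con (range 0 to 1, Avpr1a -0.76).

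Differences that did not pass changed sign as follows. With array weights, Avp con KO vs WT was 0.0086, Avpr1b KO stress vs con 0.000664, Avpr1b stress KO vs WT 0.084, Oxt averaged over conditions by genotype 0.00305 and Oxt WT stress vs con 0.24. Without both WT replicates 1 the values were 0.040 (Avp con KO vs WT), 0.017 (Avp WT stress vs con), 0.059 (Avpr1b stress KO vs WT), 0.048 (Oxt genotype average) and 0.17 (Oxt WT stress vs con). Within the 14 arrays they were 0.27 (Avpr1a con KO vs WT), -0.051 (Avpr1a KO stress vs con), -0.021 (Avpr1b interaction), 0.0056 (Avpr1b KO stress vs con), 0.016 (Avpr1b stress average), 0.026 (Avpr1b WT stress vs con), -0.070 (Oxt stress KO vs WT), 0.35 (Oxt WT stress vs con), -0.11 (Oxtr interaction) and 0.046 (Oxtr WT stress vs con). Quantile normalization gave 0.012 for Avpr1b stress KO vs WT, and the split as a term -0.016 for Oxt stress KO vs WT. The cause was not tested.

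Leaving out single arrays also turned the sign of small differences. The ranges were for Avp -0.19 to 0.040 (con KO vs WT), -0.10 to 0.18 (genotype average), -0.044 to 0.52 (KO stress vs con), -0.075 to 0.21 (stress average), -0.070 to 0.50 (stress KO vs WT) and -0.17 to 0.066 (WT stress vs con). For Avpr1a con KO vs WT the range was -0.35 to 0.098. For Avpr1b it was -0.0029 to 0.18 (interaction), -0.043 to 0.031 (KO stress vs con) and -0.13 to 0.059 (stress KO vs WT). For Oxt it was -0.24 to 0.039 (genotype average), -0.21 to 0.34 (stress KO vs WT) and -0.22 to 0.22 (WT stress vs con). For Oxtr it was -0.030 to 0.072 (con KO vs WT), -0.011 to 0.092 (interaction) and -0.046 to 0.023 (KO stress vs con).

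Over the whole table, the count past the criterion in KO stress vs WT stress was 221 and ranged from 109 (array weights) to 1041 (14 arrays), in WT stress vs con 69 and 30 to 175, in KO stress vs con 40 and 27 to 90, in con KO vs WT 14 and 6 to 97, and in the interaction 170 and 161 to 337, in the alternatives that keep all arrays or leave out groups of them. Leaving out single arrays gave 107 (without WT stress replicate 1) to 562 (without WT stress replicate 4), 41 (without WT con replicate 4) to 223 (without WT con replicate 1), 11 (without KO stress replicate 2) to 82 (without KO stress replicate 3), 8 (without WT con replicate 3) to 87 (without WT con replicate 1) and 81 (without KO con replicate 1) to 406 (without WT con replicate 1), in the same order. The methods' t-test called 142 in KO stress vs WT stress, 1 of them after adjustment.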
